A study of Mus musculus with 15 samples.

Results

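Complex I of the respiratory chain was described here at the transcript level, through 42 of its subunit genes in the tibialis anterior muscle of mice bearing a cachexia-inducing melanoma. The members were the rows of the expression table whose gene symbol is that of a complex I subunit, 42 of 47643 symbols, of which 35 are nuclear Nduf genes and 7 are mt-Nd genes of the mitochondrial genome. Membership rested on the gene's symbol and not on its values, although the gene set was picked for description with earlier results of these data known. All 42 had at least 1 TPM (length-corrected transcript abundance, scaled to the same total in every library) in at least 3 of 15 libraries and were therefore tested, as were 11923 genes in all.

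Complex I takes electrons from NADH, passes them along a chain of iron-sulfur clusters to ubiquinone and pumps protons across the inner mitochondrial membrane. Its matrix arm holds the NADH-oxidising and quinone modules, whose core subunits are nuclear-encoded. The core of the proton-pumping membrane arm is made inside mitochondria from the mt-Nd mRNAs, so that the enzyme is assembled from the products of separate genomes. Skeletal muscle is rich in it, and oxidative fibres more so than glycolytic ones.

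The 15 muscles came from female C57BL/6J mice, with an age label of 7 weeks, and per the design text were collected 49 days after a melanoma graft or a mock injection. A protocol label shared by all samples instead names 3 weeks after injection of LLC cells, and neither it nor the age label says how it relates to that day. The animals also received either mock treatment or lisinopril, a blood-pressure drug that blocks angiotensin-converting enzyme, in a crossed design. The groups were melanoma plus lisinopril (n = 4), melanoma (n = 4), lisinopril (n = 3) and mock-injected control (n = 4), so that 8 tumour-bearing muscles stood against 7 tumour-free ones. The sources used here name no melanoma line, lisinopril dose or transgene. The library kit selects mRNA and keeps strand, and 1 muscle gave 1 library.

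The depth of the libraries is unknown, because the table holds TPM and not reads. Transcripts of the mitochondrial genome took 28.5% to 46.9% of all TPM in tumour-bearing muscles and 40.8% to 52.8% in tumour-free muscles, and this share scales every nuclear gene. Each result on nuclear members was therefore also computed with TPM rescaled without the mt- genes. Control 2 stood apart from the other control libraries: its haemoglobin mRNAs summed to 23878 TPM, and 34 of 35 nuclear members were below the tumour-free mean there. The summed markers of melanoma cells were at most 0.392 TPM in any muscle, with Tyr listed at 0 in all 15 libraries, and the fast-fibre markers summed to 44366 to 110541 TPM in tumour-bearing muscles and 54995 to 96658 TPM in tumour-free muscles, as fits the labelled tissue. In bulk tissue, fewer fibres of a type and less RNA per fibre cannot be told apart.

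The nuclear subunits spanned 32.0-fold in abundance in control muscles, from 39.1 TPM for Ndufb2, a distal membrane-arm accessory subunit, to 1251 TPM for Ndufb9, another of the same arm, with a median of 264 TPM. The mt-Nd mRNAs spanned 132-fold, from 239 TPM for mt-Nd6 to 31603 TPM for mt-Nd1. Averaged over groups, the 7 mt-Nd mRNAs together held 11.7 ± 2.19 times the TPM of the 35 nuclear members in tumour-bearing muscles and 11.7 ± 0.79 times in tumour-free muscles (SD, n = 8 and 7).

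In tumour-bearing muscles some nuclear subunits of each role group passed the test as lower, by small amounts. No mt-Nd member passed, although on deposited TPM all 7 had log2 fold changes below 0 and the median was alike in both sets. Across the average tumour effect, which weighs the comparisons without and with lisinopril equally, 8 of 35 nuclear members fell and none rose (22.9% lower), where 3.45% of all tested genes fell and 14.5% rose (limma on log2(TPM + 1), Benjamini-Hochberg adjusted p under 0.05). The log2 fold change was below 0 for 32 of 35 nuclear members and for 7 of 7 mt-Nd members, with a median of -0.18 in each set, against a median of 0.17 over all genes. None of the 7 mt-Nd members passed the threshold. After rescaling without the mt- genes, 18 of 35 nuclear members fell (51.4%), where 6.75% of all tested genes fell and 10.0% rose. Their median was then -0.31, against 0.056 over all genes. Median-ratio and quantile scaling gave 19 and 27 nuclear members that fell, where 10.6% and 9.85% of all genes fell. With median-ratio scaling the medians of both sets were again alike, at -0.39. With quantile scaling they were -0.41 for nuclear and -0.12 for mt-Nd members, of which 6 of 7 were below 0.

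**Figure D1:**
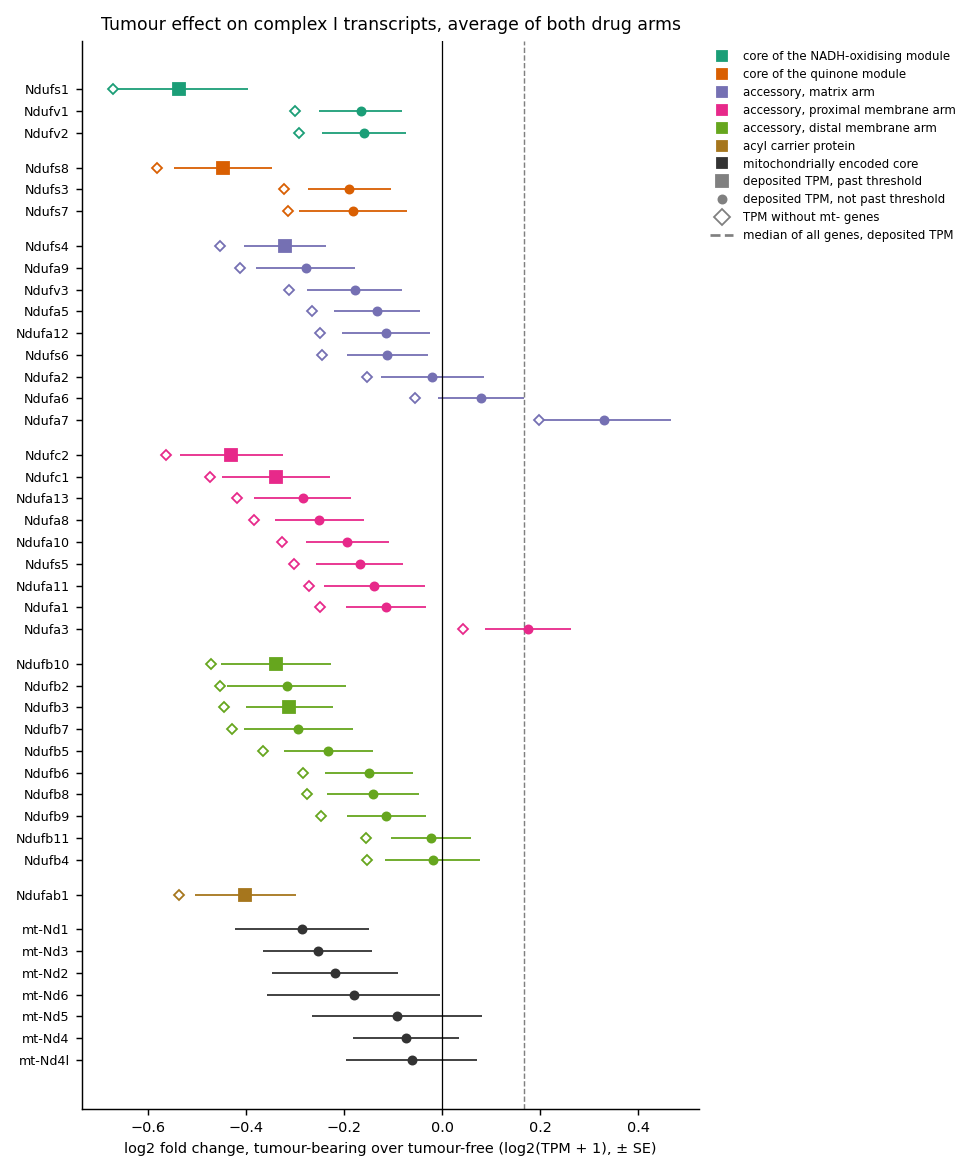
Log2 fold change (average tumour effect, tumour-bearing over tumour-free muscles) for the 42 complex I subunit genes, grouped by role, from TPM as deposited (filled, with standard error) and, for nuclear members, from TPM without the mt- genes (open diamonds, no error bar); the dashed line is the median of all genes, 0.17. Of the nuclear members, 32 of 35 sit below 0 on deposited TPM, from -0.54 for Ndufs1 to 0.33 for Ndufa7, and the 7 mt-Nd members lie between -0.29 and -0.06.

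Of the core subunits that oxidise NADH, Ndufs1 fell. Ndufs1 encodes the largest subunit of the complex and carries iron-sulfur clusters of the electron chain (chr1:63143596-63176833, minus strand, GRCm38). It had 181, 192, 189.9 and 129.6 TPM in melanoma plus lisinopril muscles, 158, 95, 184 and 166 TPM in melanoma muscles, 228, 226 and 242 TPM in lisinopril muscles, and 225, 199, 258 and 235 TPM in control muscles. Each of the 8 tumour-bearing muscles was below each of the 7 tumour-free ones, although the highest tumour-bearing value, 192 TPM, was close to the lowest tumour-free value, 199 TPM in control 2. On deposited TPM, non-overlap in this direction was found for 0.839% of all tested genes, and among the members for Ndufs1 and Ndufs4. It was found without the mt- genes for 1.5% of genes, and among the nuclear members for Ndufs1 and Ndufs8. The log2 fold change of Ndufs1 on deposited TPM was -0.54 ± 0.14 (SE, limma adjusted p = 0.0226), the lowest of the 42.

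The other NADH-module core subunits moved less. Ndufv1, the flavin subunit where NADH binds, had 323, 283, 285 and 278 TPM in melanoma plus lisinopril muscles, 280.2, 231, 311 and 272 TPM in melanoma muscles, 306, 307 and 327 TPM in lisinopril muscles, and 323, 312, 333 and 310.0 TPM in control muscles. Ndufv2, an iron-sulfur subunit beside it, had 336, 317, 304 and 333 TPM in melanoma plus lisinopril muscles, 314, 292, 337 and 332 TPM in melanoma muscles, 375, 363 and 355 TPM in lisinopril muscles, and 351, 296, 401 and 366 TPM in control muscles. The groups overlapped for both genes, and neither passed the test (Ndufv1 log2 fold change -0.17 ± 0.084, limma adjusted p = 0.16; Ndufv2 -0.16 ± 0.085, adjusted p = 0.182).

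In the quinone module, where electrons reach ubiquinone, Ndufs8 fell. It encodes a ferredoxin-like iron-sulfur subunit (chr19:3908863-3912774, minus strand, GRCm38). Ndufs8 had 244, 205, 229 and 222 TPM in melanoma plus lisinopril muscles, 217, 159, 234 and 195 TPM in melanoma muscles, 281, 296 and 294 TPM in lisinopril muscles, and 306, 241, 300.2 and 307 TPM in control muscles. The groups overlapped only through control 2, whose 241 TPM lay below the 244 TPM of melanoma plus lisinopril 1. The log2 fold change was -0.45 ± 0.10 (SE, limma adjusted p = 0.0115), the smallest adjusted p among the members, and Ndufs8 was the only member that passed in each of the 24 alternatives tried.

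The 250 bases before the start of Ndufs8 are printed with those of Ndufa11, a proximal membrane-arm subunit, to show the kind of promoter these genes have (RefSeq, GRCm38.p6). The windows are chr19:3912775-3913024 on the minus strand for Ndufs8 and chr17:56717512-56717761 on the plus strand for Ndufa11, and neither overlaps its gene as GENCODE gives it. Capitals mark the match to the palindromic motif of nuclear respiratory factor 1, 60 to 51 bases before the start of Ndufa11; the search left the base after its first A free. Both were picked with the fold changes known.
Ndufs8: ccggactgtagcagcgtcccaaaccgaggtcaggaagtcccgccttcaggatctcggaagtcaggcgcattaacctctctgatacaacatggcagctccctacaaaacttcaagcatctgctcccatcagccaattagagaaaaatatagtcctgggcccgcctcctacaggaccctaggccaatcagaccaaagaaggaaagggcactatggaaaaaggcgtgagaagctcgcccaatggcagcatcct
Ndufa11: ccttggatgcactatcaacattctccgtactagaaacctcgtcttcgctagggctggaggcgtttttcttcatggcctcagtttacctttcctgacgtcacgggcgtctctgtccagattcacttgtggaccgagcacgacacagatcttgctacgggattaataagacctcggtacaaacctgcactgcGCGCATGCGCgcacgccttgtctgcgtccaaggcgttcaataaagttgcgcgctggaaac

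A promoter window was found for 32 of the 35 nuclear members. Searched on both strands, this motif was in the windows of 6 of those 32 genes (18.8%) and in 3.74% of all 32851 windows. The first share counts genes and the second counts windows. Of the 34 member windows, 31 were followed by bases that match a transcript of the gene. Among the genes with a match, only Ndufa11 had a window clear of its gene as GENCODE gives it. The 6 were Ndufa8, Ndufs5, Ndufa11, Ndufa5, Ndufs6 and Ndufb4, none of them among the members that fell on deposited TPM; of the 8 that fell, 7 had a window. That split depends on the scale: Ndufa8 and Ndufs5 fell without the mt- genes, and 5 of the 6 fell with quantile scaling. The ETS-type motif CCGGAAGT and the YY1-type motif AAGATGGC were in no member's window, and in 2.88% and 1.56% of all windows. Since only the first of these motifs matched in the members' windows, no match was counted under more than 1 name. Such matches describe these letters in these windows only.

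The quinone-module core subunits Ndufs3 and Ndufs7 did not pass. Ndufs3, a scaffold of the module, had 241, 224, 209 and 252 TPM in melanoma plus lisinopril muscles, 227, 218, 241 and 212 TPM in melanoma muscles, 279, 259.6 and 261 TPM in lisinopril muscles, and 269.9, 216, 265 and 266 TPM in control muscles. Without control 2 its groups would not overlap. Ndufs7, which carries the last iron-sulfur cluster before ubiquinone, had 330.0, 226, 250.3 and 282 TPM in melanoma plus lisinopril muscles, 278, 201, 282 and 253 TPM in melanoma muscles, 298, 319.9 and 308 TPM in lisinopril muscles, and 289.8, 241, 281 and 326 TPM in control muscles. Melanoma plus lisinopril 1 had the highest Ndufs7 value of all 15. Their log2 fold changes were -0.19 ± 0.084 for Ndufs3 (limma adjusted p = 0.115) and -0.18 ± 0.11 for Ndufs7 (adjusted p = 0.237); without the mt- genes Ndufs3 fell by 0.32 on the log2 scale (adjusted p = 0.0302).

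Among the 9 accessory subunits of the matrix arm, only Ndufs4 fell. Ndufs4 is a small subunit clamped onto the NADH and quinone modules, and its loss gives a Leigh-like disease in mice (chr13:114287795-114388258, minus strand, GRCm38). It had 185, 170.1, 175 and 190.3 TPM in melanoma plus lisinopril muscles, 162, 158, 179.9 and 182 TPM in melanoma muscles, 222, 234 and 201 TPM in lisinopril muscles, and 225, 192, 245 and 217 TPM in control muscles. Tumour-bearing and tumour-free muscles did not overlap, and the closest values were 190.3 TPM in melanoma plus lisinopril 4 and 192.3 TPM in control 2. They overlapped without the mt- genes, with a highest tumour-bearing value of 343 TPM in melanoma 4 and a lowest tumour-free value of 331 TPM in control 2. Its log2 fold change on deposited TPM was -0.32 ± 0.084 (SE, limma adjusted p = 0.0227).

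Ndufa7 and Ndufa6 of the same matrix-arm group had, with Ndufa3 of the membrane arm, the 3 fold changes above 0. Ndufa7, a subunit of the quinone module, had 124, 95.5, 94.5 and 165 TPM in melanoma plus lisinopril muscles, 116, 164, 108 and 109 TPM in melanoma muscles, 88.3, 103 and 98.7 TPM in lisinopril muscles, and 93.5, 101, 78.3 and 102 TPM in control muscles. Ndufa6, which holds an acyl carrier protein on the matrix arm, had 546, 496, 494 and 684 TPM in melanoma plus lisinopril muscles, 588, 643, 582 and 583 TPM in melanoma muscles, 554, 578 and 532 TPM in lisinopril muscles, and 537, 514, 546 and 531 TPM in control muscles. For both genes melanoma plus lisinopril 4 and melanoma 2 were the highest libraries, and the other tumour-bearing muscles overlapped the tumour-free ones or lay near them. The log2 fold changes were 0.33 ± 0.14 for Ndufa7 (limma adjusted p = 0.0963) and 0.08 ± 0.088 for Ndufa6 (adjusted p = 0.526); Ndufa6 changed sign to -0.05 without the mt- genes. The mitochondrial share of TPM was 28.5% in melanoma plus lisinopril 4, the lowest of the 15, and 37.3% in melanoma 2, and its part in these values was not tested.

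Of the other 6 matrix-arm accessory subunits, none passed on deposited TPM. Ndufa2 was level (467 ± 71.6 TPM in tumour-bearing and 468 ± 30.4 TPM in tumour-free muscles, SD, n = 8 and 7). Ndufa9, which helps to hold the matrix arm to the membrane, came closest to the threshold, with 220.3 ± 28.9 TPM in tumour-bearing and 265 ± 16.6 TPM in tumour-free muscles (log2 fold change -0.28 ± 0.10, limma adjusted p = 0.0633). Without the mt- genes Ndufa9, Ndufs4 and Ndufv3 fell, the last a small subunit near the NADH site (log2 fold change -0.31 ± 0.098, adjusted p = 0.0446).

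In the proximal membrane arm, Ndufc1 and Ndufc2 fell, 2 of 9 accessory subunits. Ndufc2 is a transmembrane subunit beside mt-Nd2 that the membrane arm needs for its assembly (chr7:97400003-97407802, plus strand, GRCm38). It had 176, 159, 163 and 169 TPM in melanoma plus lisinopril muscles, 157, 115, 162 and 179 TPM in melanoma muscles, 213, 242 and 199 TPM in lisinopril muscles, and 218, 179, 233 and 219 TPM in control muscles. Ndufc1, its smaller neighbour (chr3:51404677-51408988, minus strand), had 132, 127, 115 and 130.3 TPM in melanoma plus lisinopril muscles, 135, 81, 122 and 127 TPM in melanoma muscles, 165, 158 and 154 TPM in lisinopril muscles, and 151, 126, 155 and 150.4 TPM in control muscles. For both genes control 2 had the lowest tumour-free value, at or within the tumour-bearing range, and melanoma 2 was the lowest of all. The log2 fold changes were -0.43 ± 0.11 for Ndufc2 (SE, limma adjusted p = 0.0175) and -0.34 ± 0.11 for Ndufc1 (adjusted p = 0.0466).

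Ndufa3, another small subunit of the proximal membrane arm, lay on the other side of 0. It had 272, 230.2, 230.1 and 296 TPM in melanoma plus lisinopril muscles, 249, 297, 234 and 257 TPM in melanoma muscles, 242, 227 and 244 TPM in lisinopril muscles, and 215, 214, 227 and 215 TPM in control muscles. All tumour-bearing values exceeded those of the control muscles, while the lisinopril muscles overlapped the tumour-bearing range. Its log2 fold change was 0.18 ± 0.088 (SE, limma adjusted p = 0.157) and 0.04 ± 0.091 without the mt- genes (adjusted p = 0.767). Of the 6 remaining proximal subunits, Ndufa13, also known as the apoptosis-related protein GRIM-19, came closest on deposited TPM (log2 fold change -0.28 ± 0.099, adjusted p = 0.0556), and Ndufa8 followed at -0.25 ± 0.091 (adjusted p = 0.0647). Both fell without the mt- genes, as did Ndufa10 and Ndufs5, which made 6 of 9 for this arm.

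In the distal membrane arm, the end farthest from the NADH site, Ndufb3 and Ndufb10 fell, 2 of 10 accessory subunits. Ndufb3 (chr1:58586384-58595964, plus strand, GRCm38) had 231, 211, 211 and 225 TPM in melanoma plus lisinopril muscles, 202, 199, 213 and 239 TPM in melanoma muscles, 271, 289.7 and 236 TPM in lisinopril muscles, and 293, 234, 299 and 266 TPM in control muscles. Ndufb10 (chr17:24722060-24724478, minus strand) had 336, 312, 301 and 292 TPM in melanoma plus lisinopril muscles, 330.1, 274, 334 and 298 TPM in melanoma muscles, 370.3, 417 and 369 TPM in lisinopril muscles, and 473, 282, 425 and 437 TPM in control muscles. Control 2 lay inside the tumour-bearing range for both, and lisinopril 3 as well for Ndufb3. The log2 fold changes were -0.31 ± 0.088 for Ndufb3 (SE, limma adjusted p = 0.0299) and -0.34 ± 0.11 for Ndufb10 (adjusted p = 0.0493), the call nearest the threshold.

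All 10 distal subunits were below 0, from -0.34 for Ndufb10 to -0.02 for Ndufb4 on the log2 scale. Without the mt- genes 5 of 10 fell, Ndufb2, Ndufb5 and Ndufb7 in addition to the 2 above. Ndufb9, the most abundant nuclear member, had 1196 ± 60.0 TPM in tumour-bearing and 1290 ± 95.8 TPM in tumour-free muscles (SD, n = 8 and 7) and did not pass under either scale (log2 fold change -0.11 ± 0.080, limma adjusted p = 0.305, and -0.25 ± 0.11, adjusted p = 0.126). Ndufb4 and Ndufb11 were level on deposited TPM, at 242 ± 31.7 and 500.5 ± 34.8 TPM in tumour-bearing muscles, against 242 ± 17.8 and 505 ± 36.5 TPM in tumour-free muscles.

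Ndufab1, the mitochondrial acyl carrier protein, fell too. It sits in both arms of complex I and also carries the growing chain in mitochondrial fatty acid synthesis, so its transcript serves more than this enzyme (chr7:122085403-122101886, minus strand, GRCm38). It had 46.6, 45.1, 45.1 and 39.8 TPM in melanoma plus lisinopril muscles, 43.2, 33.9, 53.0 and 41.6 TPM in melanoma muscles, 56.8, 59.9 and 53.6 TPM in lisinopril muscles, and 65.5, 49.7, 60.0 and 58.8 TPM in control muscles. Melanoma 3, at 53.0 TPM, exceeded control 2, and otherwise the tumour-bearing values were the lower ones. The log2 fold change was -0.40 ± 0.10 (SE, limma adjusted p = 0.0209).

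**Figure D2:**
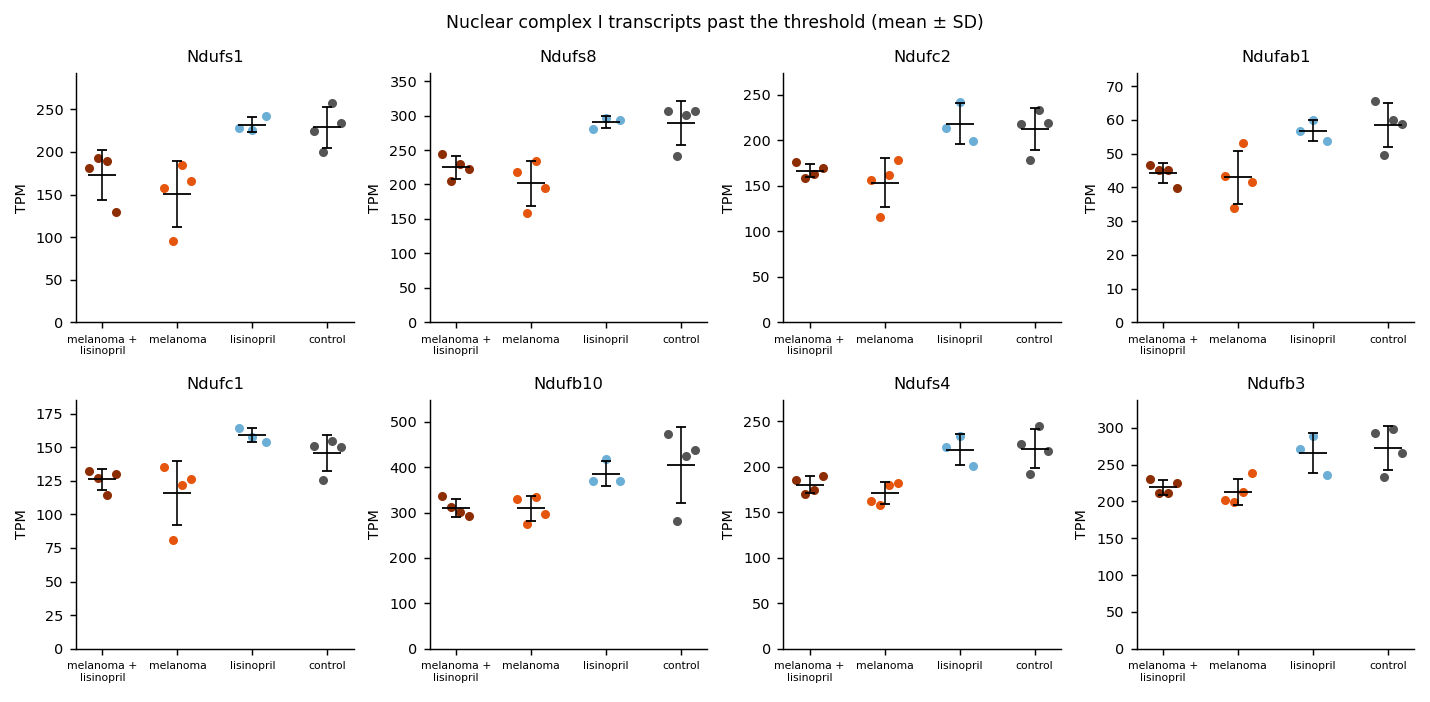
TPM by library for the 8 nuclear members that fell in the average tumour effect, with group mean and SD (n = 4, 4, 3 and 4). Ndufs1 and Ndufs4 do not overlap between tumour-bearing and tumour-free muscles, and in the panel of Ndufs8 the lowest control point, 241 TPM, is control 2.

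The number of calls depended on which libraries were used, among the members and over all genes. Without control 2, 15 nuclear members fell, the 8 above among them, where 5.28% of all genes fell. Without lisinopril 1 or lisinopril 2 the count was 2 (Ndufc2 and Ndufs8) or 1 (Ndufs8), where 1.36% or 1.29% of all genes fell. Leaving out control 1, control 3 or control 4 left 5 calls in each case: Ndufab1, Ndufc2, Ndufs1, Ndufs4 and Ndufs8. Of all genes 1.88%, 2.67% and 1.9% fell there.

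Counted by library, most nuclear members were below the tumour-free mean in each tumour-bearing muscle. The same count was not made over all genes. Tumour-free libraries helped to set that mean and tumour-bearing ones did not, so their counts do not compare on equal terms. Members of 1 library share its scale, so they are not separate pieces of evidence. In melanoma plus lisinopril muscles 1 to 4, 24, 32, 34 and 23 of 35 nuclear members were below the tumour-free mean, and in melanoma muscles 31, 29, 31 and 32. In lisinopril muscles the counts were 15, 7 and 15, and in control muscles 18, 34, 9 and 14. On deposited TPM, control 2 was thus the only tumour-free library whose count lay within the tumour-bearing range. Without the mt- genes the counts were 30, 35, 35 and 33 in melanoma plus lisinopril muscles and 34, 32, 34 and 28 in melanoma muscles, against 9, 4 and 27 in lisinopril muscles and 28, 34, 1 and 29 in control muscles, so that 3 control libraries lay within the tumour-bearing range.

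The 35 nuclear members summed to 9499 ± 678 TPM in melanoma plus lisinopril muscles, 9315 ± 486 TPM in melanoma muscles, 10702 ± 198 TPM in lisinopril muscles and 10247 ± 702 TPM in control muscles (SD, n = 4, 4, 3 and 4). The mean over tumour-bearing muscles was 9.91% below that over tumour-free muscles, and 18.1% below it without the mt- genes. For the 7 mt-Nd mRNAs the mean sum was 10.4% below, with sums of 78686 to 135356 TPM in tumour-bearing muscles and 114779 to 143507 TPM in tumour-free muscles, ranges that overlapped.

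**Figure D3:**
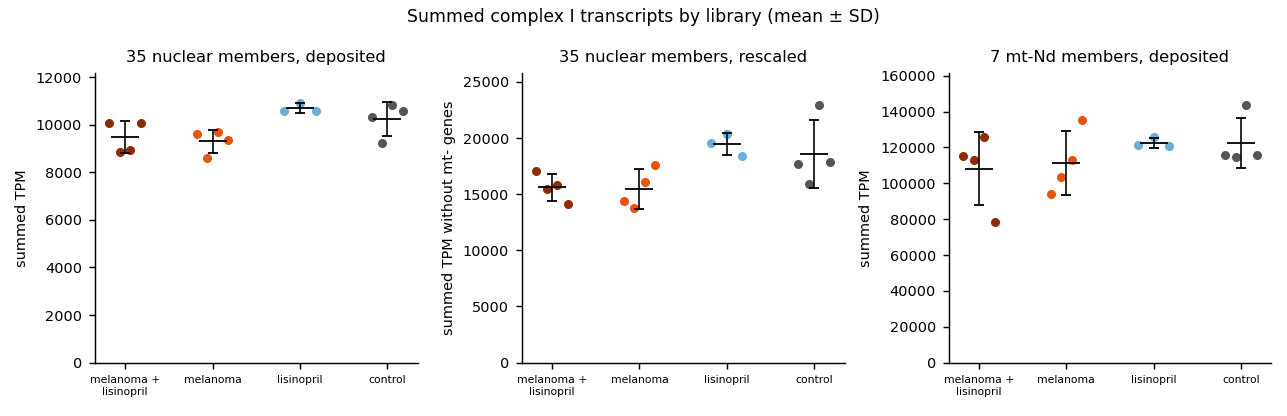
Summed TPM of the 35 nuclear members (as deposited, left, and without the mt- genes, middle) and of the 7 mt-Nd members (right) in each library, with group mean and SD (n = 4, 4, 3 and 4). The deposited nuclear sums of the lisinopril group, 10702 ± 198 TPM, lie above all 8 tumour-bearing libraries, while the mt-Nd sums overlap between groups.

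The mt-Nd mRNAs are cut from long transcripts of the mitochondrial genome. mt-Nd1, mt-Nd2, mt-Nd3, mt-Nd4, mt-Nd4l and mt-Nd5 lie on the plus strand and mt-Nd6 on the minus strand. mt-Nd4l (chrM:9877-10173) and mt-Nd4 (chrM:10167-11544) are parts of 1 bicistronic mRNA and share 7 bases, and mt-Nd5 (chrM:11742-13565) and mt-Nd6 (chrM:13552-14070) share 14 bases on opposite strands. The sources used here do not say whether strand was used in counting, so reads in those overlaps, and antisense reads generally, may have been assigned to either gene. The junction of mt-Nd4l and mt-Nd4 is shown because they share an mRNA and bases. Whether their values depend on each other was not tested. Printed are the last 30 bases of mt-Nd4l and the first 30 of mt-Nd4 (chrM:10144-10173 and chrM:10167-10196, plus strand, GENCODE M21 on GRCm38). The shared bases, in capitals, hold the stop codon of mt-Nd4l and the start codon of mt-Nd4.
mt-Nd4l: gtccaaaatctcaacctactacaATGCTAA
mt-Nd4: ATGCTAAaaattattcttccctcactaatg

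mt-Nd1, the subunit at the entry of the quinone channel, had the lowest fold change of the mt-Nd members. It had 28327, 27560.3, 32648 and 19212 TPM in melanoma plus lisinopril muscles, 23112, 20975, 28857 and 32540.1 TPM in melanoma muscles, 33054, 33766 and 30988 TPM in lisinopril muscles, and 29471, 26965, 37934 and 32042 TPM in control muscles. mt-Nd3, which forms part of the joint between the arms, had 13380.5, 12930.4, 12905 and 10311 TPM in melanoma plus lisinopril muscles, 10929, 12417, 10814 and 15159 TPM in melanoma muscles, 15765, 16286 and 14003 TPM in lisinopril muscles, and 12792, 14034, 16774 and 12645 TPM in control muscles. Melanoma plus lisinopril 4 was the lowest library for both, and the tumour-bearing and tumour-free ranges overlapped. The log2 fold changes were -0.29 ± 0.14 for mt-Nd1 (SE, limma adjusted p = 0.142) and -0.25 ± 0.11 for mt-Nd3 (adjusted p = 0.11; unadjusted p = 0.0382, the only mt-Nd member under 0.05), so neither passed.

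mt-Nd2, mt-Nd4 and mt-Nd5 are the antiporter-like subunits that pump protons. mt-Nd2 averaged 20214 ± 3783 TPM in tumour-bearing and 23169 ± 1915 TPM in tumour-free muscles (SD, n = 8 and 7; log2 fold change -0.22, limma adjusted p = 0.223). mt-Nd4 averaged 24467 ± 3132 TPM in tumour-bearing and 25638 ± 1942 TPM in tumour-free muscles (-0.07, adjusted p = 0.638), and mt-Nd4l, its bicistronic partner, 16038 ± 3000.5 and 16597 ± 1582 TPM (tumour-bearing and tumour-free, -0.06, adjusted p = 0.754). mt-Nd5 averaged 9832 ± 2615 TPM in tumour-bearing and 10267 ± 1175 TPM in tumour-free muscles (-0.09, adjusted p = 0.72). The spread of each between tumour-bearing libraries was larger than its difference between the sets. For mt-Nd2 the spread between tumour-free libraries was smaller than that difference. mt-Nd6, the light-strand gene, was the scarcest, at 198 ± 48.8 TPM in tumour-bearing and 225 ± 56.2 TPM in tumour-free muscles (-0.18, adjusted p = 0.466).

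**Figure D4:**
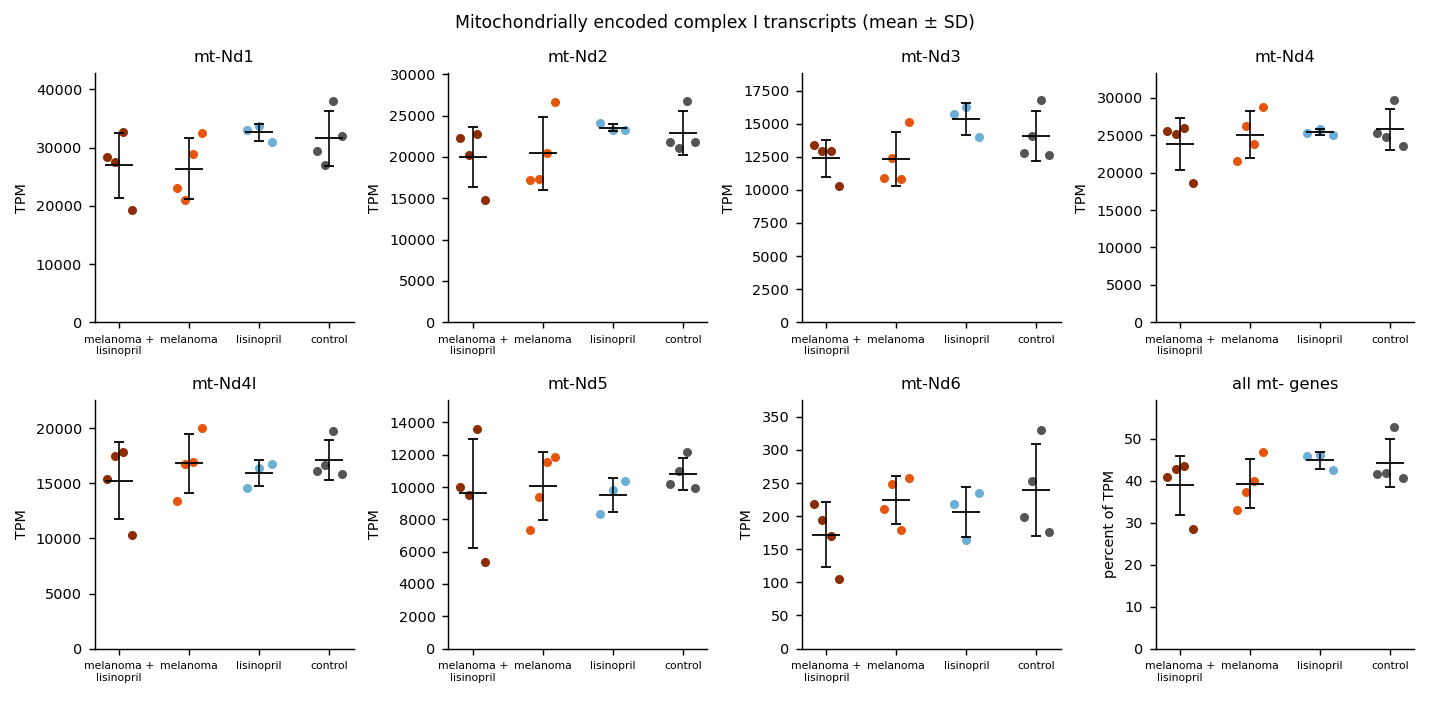
TPM by library for the 7 mt-Nd members, with group mean and SD (n = 4, 4, 3 and 4). The tumour-bearing and tumour-free muscles overlap in every panel, and melanoma plus lisinopril 4 is the lowest of the 15 libraries for mt-Nd1, at 19212 TPM, and for mt-Nd4, at 18636 TPM.

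The mt-Nd mRNAs were part of a wider difference that did not pass its test. All mt- transcripts took 39.1 ± 5.95% of TPM in tumour-bearing muscles and 44.5 ± 4.20% in tumour-free muscles (SD, n = 8 and 7), a difference of -5.44 percentage points (exact permutation test over all relabellings, two-sided p = 0.0678). It was -6.55 points with p = 0.0216 in the exact test without melanoma 4, the only left-out library that brought p under 0.05. With any other single library left out, the exact test gave p from 0.053 to 0.148. The 6 other mitochondrial mRNAs, for subunits of complexes III, IV and V, were all below 0 on the log2 scale, from -0.26 for mt-Co1 to -0.10 for mt-Atp8, and 0 of 6 passed. Mitochondrial ribosomal and transfer RNAs are listed at 0 in all libraries, so the shares refer to mRNA.

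Within the mitochondrial mRNAs, the members' proportions differed a little between the sets. mt-Nd4 made up 6.29 ± 0.39% of mitochondrial mRNA TPM in tumour-bearing muscles and 5.77 ± 0.20% in tumour-free muscles (SD, n = 8 and 7), and mt-Nd4l 4.08 ± 0.28% in tumour-bearing and 3.74 ± 0.28% in tumour-free muscles. mt-Nd1 made up 6.80 ± 0.57% in tumour-bearing and 7.19 ± 0.42% in tumour-free muscles. For mt-Nd4 the ranges were 5.90% to 7.04% with tumour and 5.50% to 6.07% without, and overlapped. No test was run on these shares, which depend on each other because they add up to a whole.

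**Figure D5:**
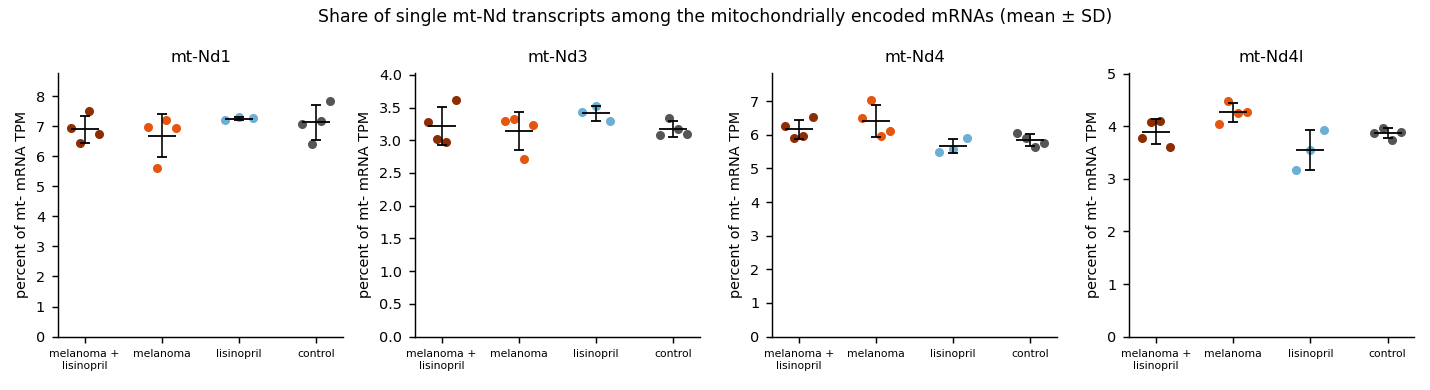
Share of mt-Nd1, mt-Nd3, mt-Nd4 and mt-Nd4l in the TPM of all mitochondrially encoded mRNAs, by library, with group mean and SD (n = 4, 4, 3 and 4). mt-Nd4 lies between 5.90% and 7.04% in tumour-bearing muscles and between 5.50% and 6.07% in tumour-free muscles.

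Without lisinopril, no member passed in melanoma against control (0 of 42, where 0.646% of all genes passed). The log2 fold change was below 0 for 29 of 35 nuclear and 7 of 7 mt-Nd members, with a nuclear median of -0.17 and an all-gene median of 0.10, and 10 of 35 nuclear members and 2209 of all 11923 genes had an unadjusted p under 0.05. Rescaled without the mt- genes, the nuclear median was -0.30, and 18 members and 2691 of 12865 genes were at an unadjusted p under 0.05, again with 0 members past the adjusted threshold. On deposited TPM Ndufs8 had the smallest adjusted p, at a log2 fold change of -0.52 ± 0.14 (SE, limma adjusted p = 0.0876). Ndufs1 had the largest difference, -0.64 ± 0.19 (adjusted p = 0.122), with 151 ± 38.8 TPM in melanoma and 229 ± 24.2 TPM in control muscles (SD, n = 4 each). Without control 2, 3 members passed in this comparison, all lower, where 4.96% of all genes passed and 1.16% fell.

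With lisinopril in both arms, no member passed either. In melanoma plus lisinopril against lisinopril, 33 of 35 nuclear and 7 of 7 mt-Nd members were below 0, the nuclear median was -0.18, and 6 of 35 nuclear members had an unadjusted p under 0.05, as did 2781 of all 11923 genes, a larger share. Of all genes 1.48% passed the adjusted threshold. The nuclear median was -0.32 without the mt- genes, with 16 members and 2651 of 12865 genes at an unadjusted p under 0.05. Ndufb5, a distal membrane-arm subunit, had the smallest adjusted p on deposited TPM (log2 fold change -0.34 ± 0.13, limma adjusted p = 0.161). Ndufs8 was at -0.37 ± 0.15 (adjusted p = 0.164) and Ndufs1 at -0.44 ± 0.21 (adjusted p = 0.217). The test of whether the tumour effect differed between the drug arms called 0 of 42 members and 0 of 11923 genes, with 0 members and 151 genes at an unadjusted p under 0.05. The difference between arms was 0.15 ± 0.20 for Ndufs8 and 0.20 ± 0.28 for Ndufs1 on the log2 scale, with errors larger than the differences.

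Lisinopril itself moved no member past the threshold. In lisinopril against control, nuclear members lay between -0.04 and 0.16 on the log2 scale, with a median of 0.05 against -0.18 over all genes, and mt-Nd members between -0.19 and 0.13. With median-ratio scaling the nuclear median was 0.26, with 0 of 35 below 0 and 2 at an unadjusted p under 0.05, against an all-gene median of -0.01. On deposited TPM limma called 0 of 42 members and 0.0% of all genes, with 0 members and 461 genes at an unadjusted p under 0.05. In melanoma plus lisinopril against melanoma, nuclear members lay between -0.12 and 0.29, with a median of 0.058 (0.13 with median-ratio scaling), and mt-Nd members between -0.42 and 0.03; limma called 0 of 42 members and 0.0% of all genes, with 1 member and 189 genes at an unadjusted p under 0.05. That member was Ndufb8, at 209 ± 15.8 TPM in melanoma plus lisinopril and 171 ± 13.6 TPM in melanoma muscles (log2 fold change 0.29 ± 0.13, SE, limma adjusted p = 1). A p that misses the threshold does not show that drug-treated and untreated muscles were alike: the standard errors of single nuclear members were 0.11 to 0.21.

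Among the factors that assemble complex I, a few fell. Of 18 in the list, 15 were tested, 2 fell, none rose, and 12 were below 0, with a median log2 fold change of -0.19, where 3.45% of all genes fell and the all-gene median was 0.17. Ndufaf6, an early assembly factor for mt-Nd1, had 18.8 ± 1.06 TPM in tumour-bearing and 23.7 ± 2.26 TPM in tumour-free muscles (SD, n = 8 and 7; log2 fold change -0.33 ± 0.083, limma adjusted p = 0.0206), with no overlap between them. Timmdc1, a membrane-arm assembly factor, had 28.3 ± 2.69 TPM in tumour-bearing and 35.3 ± 3.77 TPM in tumour-free muscles (-0.30 ± 0.095, adjusted p = 0.0418). Without the mt- genes 6 of the 15 fell, where 6.75% of all genes fell, with Ndufaf1, Ndufaf3, Ndufaf5 and Tmem126b besides these.

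Of 29 genes for mitochondrial transcription and mRNA stability, 24 were tested, 4 fell and none rose, where 3.45% of all genes fell and 14.5% rose. Their median log2 fold change was 0.02, against 0.17 over all genes. Tfam, which packages mitochondrial DNA and starts its transcription, had 16.5 ± 1.84 TPM in tumour-bearing and 20.5 ± 1.69 TPM in tumour-free muscles, without overlap (SD, n = 8 and 7; log2 fold change -0.29 ± 0.096, limma adjusted p = 0.0478). Mterf2, a mitochondrial DNA-binding protein of the transcription termination factor family, had 9.84 ± 3.26 TPM in tumour-bearing and 21.1 ± 3.11 TPM in tumour-free muscles (-1.10 ± 0.23, adjusted p = 0.00949). Tefm, the mitochondrial elongation factor, and Tfb1m, a methyltransferase of the mitochondrial small ribosomal RNA, also fell (-0.31 and -0.42, adjusted p = 0.0291 and 0.0297). All 4 also fell without the mt- genes. Lrpprc, which stabilises most mitochondrial mRNAs, was at -0.18 ± 0.092 (adjusted p = 0.161), and Polrmt, the mitochondrial RNA polymerase, at 0.33 ± 0.13 (adjusted p = 0.089).

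Of 14 regulators of nuclear mitochondrial genes, all tested, 5 rose and none fell on deposited TPM, where 14.5% of all genes rose. Their median log2 fold change was 0.23, close to the 0.17 of all genes, and with median-ratio scaling it was 0.05, with 3 higher and 1 lower. Pprc1, a coactivator related to PGC-1alpha, had 8.21 ± 2.07 TPM in tumour-bearing and 4.56 ± 1.29 TPM in tumour-free muscles (SD, n = 8 and 7; log2 fold change 0.73 ± 0.17, limma adjusted p = 0.0137). Nrf1, nuclear respiratory factor 1, had 3.24 ± 0.93 TPM in tumour-bearing and 2.03 ± 0.685 TPM in tumour-free muscles (0.50 ± 0.15, adjusted p = 0.0404). The corepressor genes Nrip1 and Ncor1 and the zinc finger factor Yy1 rose as well (0.68, 0.42 and 0.61). Without the mt- genes Pprc1, Nrip1 and Nrf1 passed and Yy1 and Ncor1 did not, while Esrra, the orphan receptor ERRalpha, fell (-0.55, adjusted p = 0.0488). Ppargc1a, which encodes PGC-1alpha, had 27.4 ± 18.6 TPM in tumour-bearing and 13.9 ± 1.81 TPM in tumour-free muscles and did not pass (0.70 ± 0.29, adjusted p = 0.0879).

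Markers of fibre type and of other cells moved beside these results, and their part in them was not tested. The 6 oxidative-fibre markers summed to 1423 to 5693 TPM in tumour-bearing muscles and 6646 to 11418 TPM in tumour-free muscles, without overlap. Of the 6, 1 passed, the oxygen-binding Mb (log2 fold change -1.15 ± 0.27, limma adjusted p = 0.0151), which makes up most of that sum. Only 3 of the 6 were below 0, and their median log2 fold change was 0.46. That median was -0.74 in melanoma against control and 1.62 in melanoma plus lisinopril against lisinopril. Myh7 and Myh2, myosins that define oxidative fibres, did not pass (1.42 ± 0.71, adjusted p = 0.156, and -0.51 ± 0.37, adjusted p = 0.321). Of the fast-fibre markers 0 of 6 passed. The neutrophil markers rose in 3 of 3 (29.1 to 329.5 TPM summed in tumour-bearing and 9.38 to 85.7 TPM in tumour-free muscles). Fibroblast markers rose in 2 of 3 (298 to 499 and 114 to 479 TPM, tumour-bearing and tumour-free), and in 1 of 3 without the mt- genes, with Col1a1 at -0.96 without passing. Of 3 endothelial markers 1 fell, the only 1 below 0, and their median log2 fold change was 0.11. Macrophage, red blood cell, white and brown adipocyte markers gave no call, and Ucp1 and Lep, which define the adipocyte kinds, were at most 0.373 and 0.12 TPM.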

How the data were processed

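RNA of 15 tibialis anterior muscles was sequenced after a stranded poly(A) mRNA kit, per the labels' protocols. The deposited table gives TPM per gene symbol, made by the authors with mm10 as the genome, as the submitters' processing notes say; each library sums to the same total. The sources used here give no aligner, counting method, annotation or use of strand. The values are shares, so a large mitochondrial fraction lowers every nuclear gene. Depth cannot be read from TPM, so no counting interval is given.

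Genes with at least 1 TPM in at least 3 libraries were tested with limma 3.58.1 in R 4.3.3 on log2(TPM + 1), with 4 group means, 11 residual degrees of freedom and trended variance, two-sided, Benjamini-Hochberg adjusted over all 11923 genes at 0.05. Fold changes on this scale understate the change of low genes. The average tumour effect is the mean of melanoma minus control and melanoma plus lisinopril minus lisinopril. The other contrasts were those 2, the drug effect without and with tumour, and the interaction; comparisons that share control libraries are not independent. The rule for values in every library took the core subunits, the 5 lowest and the 3 highest nuclear fold changes, and the mt-Nd genes as far as they differ; Ndufs4, Ndufb3 and Ndufb10 were added because they passed. Members, lists and markers were chosen with earlier results of these data known. The alternatives tried were no filter on low values, a mean of at least 5 TPM, a pseudocount of 0.1, TPM without the mt- genes, median-ratio and quantile scaling, a replicate block and left-out libraries. Of the list genes, 6 had no matching symbol and were not analysed here. The labels give no batch. The fits were tested on simulated data. Promoters came from the RefSeq table, and gene positions from GENCODE M21.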

Additional observations from a re-analysis of the deposited data

Results flagged for a closer look

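Within single groups of 4 libraries, 126 sets of values were searched for a library far from the other 3, and 13 were found. Chance alone gives about 1 in 20. Genes of 1 library share its scale, so the sets are not independent, and the 13 were not weighed against that share. Control 2 was the low one in 4 of them: Ndufc1 at 126 TPM (the other controls 150.4 to 155), Ndufs3 at 216 TPM (265 to 269.9), Ndufs5 at 216 TPM (271 to 274) and Ndufs8 at 241 TPM (300.2 to 307). This is the library with 23878 TPM of haemoglobin mRNA.

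Melanoma 2 stood apart from the other melanoma libraries upward for Ndufa6 at 643 TPM (582 to 588) and Ndufa7 at 164 TPM (108 to 116), and downward for Ndufb9 at 1096 TPM (1237 to 1264). Melanoma plus lisinopril 1 was high for Ndufa9 at 254 TPM (the others of its group 222 to 226) and for Ndufv1 at 323 TPM (278 to 285). Melanoma plus lisinopril 4 was low for mt-Nd3 at 10311 TPM (12905 to 13380.5) and for mt-Nd4 at 18636 TPM (25222 to 25974), and had the lowest mitochondrial share of TPM, 28.5%. Control 3 was high for Ndufa3 at 227 TPM (the other controls 214 to 215) and for mt-Nd2 at 26790.5 TPM (21119 to 21805), and had the highest mitochondrial share, 52.8%.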

How the results depend on the processing

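All 8 nuclear members that fell on deposited TPM also fell under each of the other scalings, and more members joined them: 18 without the mt- genes, 19 under the median-ratio method and 27 after quantile normalization. These scalings moved the all-gene median log2 fold change, 0.17 on deposited TPM, to 0.056, -0.0039 and 0.00073, and the nuclear median relative to it was -0.35 on deposited TPM and -0.37, -0.38 and -0.41 under the 3 scalings. The split of all calls moved too: 80.8% were higher on deposited TPM, 59.7% without the mt- genes, 46.7% with median-ratio and 50% with quantile scaling. A pseudocount of 0.1 and a mean of at least 5 TPM gave 8 members, and no filter 6, where 3.49%, 4.16% and 1.55% of all genes fell. With 1 library left out the count ranged from 1 to 15, where 1.29% to 5.28% of all genes fell. With control 2 and melanoma 2 both left out it was 15 on deposited TPM and 24 without the mt- genes. Of all genes 5.12% and 9.81% fell there.

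Over 24 alternatives Ndufs8 passed in 24, Ndufc2 in 23, Ndufs1, Ndufs4 and Ndufab1 in 22 each, Ndufb3 in 18, Ndufc1 in 12 and Ndufb10 in 8. Melanoma against control ranged from 0 to 3 calls with 1 library left out. With both libraries left out it gave 1 and, without the mt- genes, 3, all lower, where 0.511% and 1.59% of all genes fell. Melanoma plus lisinopril against lisinopril gave 5 and 11 there, all lower, where 1.95% and 4.11% of all genes fell and 14.4% and 13.1% rose. The drug contrasts and the interaction stayed at 0 members in the alternatives run. The mitochondrial share difference ranged from -6.55 to -3.93 percentage points with 1 library left out.

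Single members changed sign: Ndufa6 to -0.054 without the mt- genes, -0.13 with median-ratio, -0.16 with quantile scaling and -0.082 without the mt- genes and both libraries; Ndufa3 to -0.037 and -0.0072 with median-ratio and quantile scaling; mt-Nd4 to 0.027 with quantile scaling; mt-Nd4l to 0.027 and mt-Nd5 to 0.036 without melanoma plus lisinopril 4, the top of ranges that began at -0.11 and -0.19 with 1 library left out. Where no value above shows it, the cause was not tested.

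Samples of different groups share replicate numbers, and 9 of 21 same-number pairs correlated above 0.1 in their deviations (range -0.15 to 0.36). Pairs with different numbers ranged from -0.42 to 0.36. The ranges overlap, so this check does not settle whether the numbers pair the samples. With the replicate block 7 nuclear members fell, Ndufb10 no longer passing, where 3.41% of all genes fell.

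The unknown depth limits the scarcer members most, and with 3 or 4 libraries a group the single contrasts rest on standard errors of 0.11 to 0.21.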
